A study of Mus musculus with 2 samples.

Results

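The genes Mir6896 to Mir7094 entered the mouse microRNA catalogue as a block of late, mostly intronic entries. Members were defined by name alone, as the miRNA genes of GENCODE M21 whose symbols run from Mir6896 to Mir7094, which gave 201 of the 2202 miRNA genes counted. They were chosen with earlier results of these data known. Their reads come from microRNA sequencing of hippocampus (labelled as a layer of it) of B6CASTF1/J males, F1 hybrids of the C57BL/6J and CAST/EiJ strains, at 18 to 20 months of age. Both libraries, called replicate 1 and replicate 2, belong to 1 group, and no treatment, genotype or second age was compared. The labels give the libraries separate tissue entries but 1 shared donor entry, which leaves unstated whether 2 animals were used, so a difference between the libraries may be technical.

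Most microRNAs are cut in the nucleus from a longer primary transcript by the enzyme complex of Drosha and Dgcr8, and again in the cytoplasm by Dicer. Mirtrons take another route: a short intron, once spliced out and debranched, folds into a hairpin that Dicer can cut directly, so the spliceosome stands in for Drosha. In a conventional mirtron both ends of the hairpin are the splice sites of the intron, while in a 5′-tailed mirtron the acceptor splice site sets the 3′ end of the hairpin alone and a stretch of intron upstream has to be trimmed away. Either form is made only where its host gene is transcribed and spliced.

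Among the most abundant of these hairpins, 3 have the annotated positions of the 2 forms, and so their sequences are given before their counts. How they are processed was not tested. RefSeq (GRCm38.p6) held a hairpin for 180 of the 201 genes, each at the same place as in GENCODE. The hairpins below are written 5′ to 3′ with the last 2 bases, which are the acceptor AG of the intron, in capitals, and the first 2 in capitals where the hairpin also begins at the donor splice site. Those of Mir7080 (chr8:123130106-123130172, plus strand) and Mir6944 (chr13:55477681-55477776, minus strand) are whole introns. That of Mir7044 (chr6:118085192-118085263, plus strand) is the 3′ end of a longer intron.
Mir7080: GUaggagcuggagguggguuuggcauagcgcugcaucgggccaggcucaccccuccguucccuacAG
Mir6944: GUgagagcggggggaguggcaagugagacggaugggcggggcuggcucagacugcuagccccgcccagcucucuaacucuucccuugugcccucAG
Mir7044: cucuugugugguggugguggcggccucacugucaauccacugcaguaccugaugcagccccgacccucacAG

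The annotated mature products of these 3 genes, with the seed (bases 2 to 8, which set most of the pairing with a target) in capitals, show which stretches of the hairpins are listed as products. C plus U made up 77.3%, 73.9% and 57.1% of the 3p arms of Mir7080, Mir6944 and Mir7044, and 30.4%, 17.4% and 36.8% of their 5p arms.
mmu-miR-7080-5p: gUAGGAGCuggagguggguuugg
mmu-miR-7080-3p: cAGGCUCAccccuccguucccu
mmu-miR-6944-5p: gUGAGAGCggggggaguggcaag
mmu-miR-6944-3p: uAACUCUUcccuugugcccucag
mmu-miR-7044-5p: gUGUGGUGgugguggcggc
mmu-miR-7044-3p: aUGCAGCCccgacccucacag

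In the annotation the hairpins met the acceptor splice site and mostly did not reach the donor. Of the 201 genes, 200 lay in an intron of a gene on the same strand, 198 of them in a protein-coding gene, and the other gene, Mir7025 in Pdgfra, was held by no annotated intron. In 187 of the 200 (93.5%) the 3′ end of the hairpin lay within 5 nt of the acceptor, and in 186 it was at the acceptor exactly. Only 19 (9.5%) began within 5 nt of the donor. Both conditions held for 15 genes, whose hairpins filled introns of 67 to 137 nt, and 172 met the acceptor condition alone. A further 11 hairpins ended 6 to 20 nt from the acceptor. Of these Mir6901, Mir6903 and Mir6914 ran 6 nt past it, and Mir6904, Mir6925, Mir6950 and Mir7029 ran 7 nt past it. The same measures gave 39 of 780 (5.00%) at the acceptor and 11 of 780 (1.41%) at the donor for the intronic genes among the other 2001 miRNA genes.

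**Figure D1:**
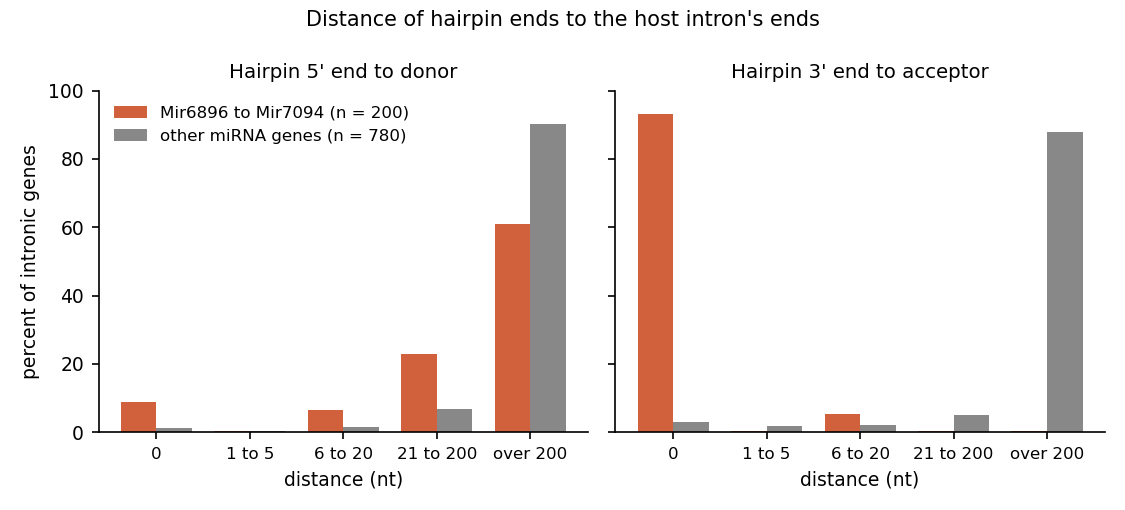
Distance in nt from the hairpin's 5′ end to the donor splice site (left) and from its 3′ end to the acceptor (right), as the percent of intronic genes in each distance class, for the Mir6896 to Mir7094 genes (n = 200) and for other intronic miRNA genes (n = 780). The tall bar at distance 0 on the right holds 93.0% of the Mir6896 to Mir7094 genes and 3.08% of the others.

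Host introns ranged from 66 to 36269 nt with a median of 461 nt, against 13060 nt for the other intronic miRNA genes. Introns of 200 nt or less held 70 of the 200 genes (35.0%), against 30 of 780 (3.85%). The block was spread over 195 host genes, and Ankrd52, Arap3, Cmip, Skiv2l and Srebf1 held 2 members each. In 41 of the 201 an exon of some annotated host transcript overlapped the hairpin. In 134 of 172 members with a listed 5p product (77.9%) that product began exactly 5 nt inside the hairpin, against 40 of 614 (6.5%) elsewhere.

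The arms differed in base composition. The 172 listed 3p products had a median of 72.5% C plus U (quartiles 66.7% and 77.3%), and the 172 listed 5p products a median of 31.8% (quartiles 26.1% and 39.1%). In the other miRNA genes the arms were nearly alike, at 52.2% for 622 3p products and 47.9% for 614 5p products. G made up a median of 44.7% of the bases of the members' 5p arms and 27.3% of those of other genes. The last 2 bases of the 3p product were AG in 133 of 172 members (77.3%) and in 68 of 622 others (10.9%). A dinucleotide match of this kind, read on the strand of the gene, describes the sequence and does not show that the site is used.

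**Figure D2:**
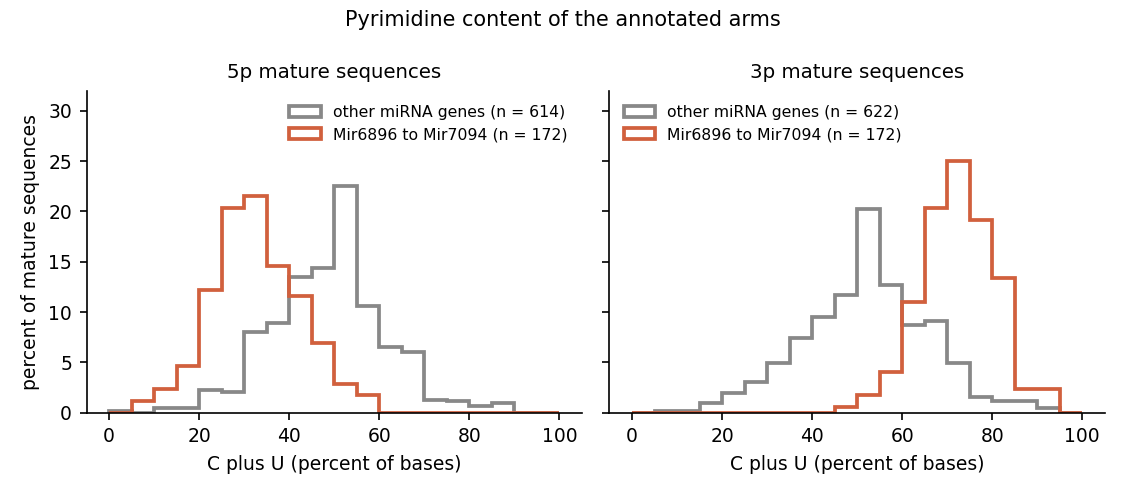
Share of C plus U in annotated 5p (left) and 3p (right) mature sequences, as the percent of sequences in bins 5 percentage points wide, for Mir6896 to Mir7094 (n = 172 for each arm) and other miRNA genes (n = 614 and n = 622). The members' 5p distribution lies to the left of the others' and their 3p distribution to the right, with medians of 31.8% and 72.5%.

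Depth and tissue checks were as follows. The sense-strand counts summed to 3758318 in replicate 1 and 5598792 in replicate 2, and 51.5% and 46.7% of all reads mapped to several places and stand in the tables as multimapped, outside the gene counts. The neuronal genes Mir132, Mir128-1 and Mir137 had between 11601 and 17813 counts per 1000000 sense counts of miRNA genes (CPM) in the 2 libraries, and the oligodendrocyte genes Mir219a-2 and Mir338 between 2815 and 6890 CPM. The 3 copies of the neuronal Mir124a, which share 32 nt, had 0 to 5 counts each. Muscle Mir1a and Mir133a copies had no counts but share at least 28 nt with each other, while Mir206, also of muscle, had 52.2 and 79.7 CPM and the liver gene Mir122 had 23.9 and 47.5 CPM. Only 4 of the 201 members (1.99%) share 20 nt or more with another annotated hairpin, against 1080 of 2001 other genes (54.0%). The 4 are Mir6970, Mir7065, Mir7094-1 and Mir7094-2, of which only Mir6970 was read, with 3 and 10 counts. On the opposite strand the members had 1 count in replicate 1 and 0 in replicate 2.

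As a whole the block was read widely and at a very low level. The 201 genes held 1649 counts in replicate 1, a share of 0.0439% (95% Wilson interval 0.0418 to 0.0460%), and 4244 in replicate 2, a share of 0.0758% (0.0736 to 0.0781%). Their summed level was 439 and 758 CPM, a mean of 598 ± 226 CPM (SD, n = 2). At least 1 count in either library was seen for 163 of the 201 (81.1%), where the background over all 2202 miRNA genes was 34.2%. Yet only 25 of them (12.4%) had 10 or more counts in both libraries and are called detected here, where the background was 17.4%. The median member had 2 counts in replicate 1 and 3 in replicate 2. The intervals cover counting error only, since PCR copies of 1 molecule are not told apart in these counts.

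Few of the other miRNA genes lay in that range between no reads and many. Among the 921 other genes that share under 20 nt with any hairpin, 49.2% were read at all and 29.6% were detected. In replicate 2 the members had 1 to 9 counts in 90 of 201 cases, 38 with 1 to 2 counts and 52 with 3 to 9, and 50 or more counts in 12 (6.0%). Of those 921 others, 45 had 1 to 2 counts, 69 had 3 to 9 and 235 (25.5%) had 50 or more. By the number in the symbol, which follows the order of naming, 51.8% of genes below Mir1000 were detected, 26.7% of those from Mir1000 to below Mir3000, 30.3% of those from Mir3000 to below Mir4000, 7.79% of those from Mir4000 to below Mir6896 and 7.83% of those above Mir7094. The shares read at all were 64.4%, 47.8%, 59.6%, 27.9% and 43.5% in the same order. No other of these ranges had as large a share of genes read but undetected as the members' 68.7%. The next largest share was 35.7%, above Mir7094.

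**Figure D3:**
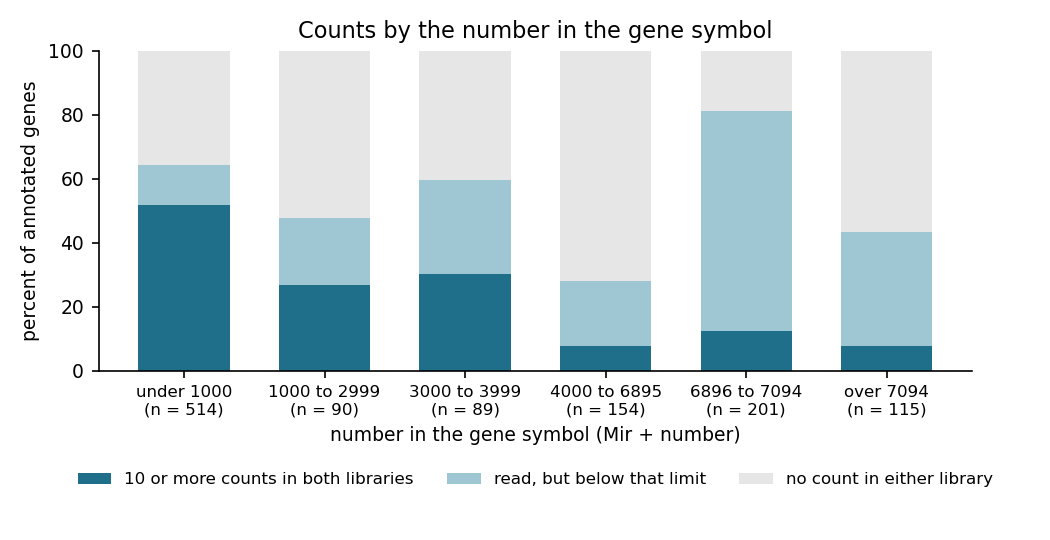
Percent of annotated miRNA genes with 10 or more counts in both libraries, with fewer counts, and with none, by the number in the gene symbol. From Mir6896 to Mir7094 (n = 201) 12.4% were detected, 68.7% were read below the limit and 18.9% had no count.

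One gene, Mir7080, accounted for a large share of the block's reads. It had 591 counts in replicate 1 and 1759 in replicate 2, that is 157 and 314 CPM (mean 236 ± 111), and held 35.8% and 41.4% of the members' counts. It ranked 153 among all 2202 miRNA genes and was the only member whose mean passed 100 CPM. Its hairpin is intron 12 of the annotated transcript of Cpne7, a copine that binds membranes in response to calcium, and it fills the intron of 67 nt from GU to AG. An exon of some annotated host transcript overlaps the hairpin, in whole or in part. Without Mir7080 the members summed to 363 ± 115 CPM.

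Next in the ranking, Mir7044 had 112 and 340 counts (29.8 and 60.7 CPM) and ends intron 4 of Rasgef1a, an exchange factor for Ras family proteins. Its hairpin, too, is overlapped by an exon of some annotated host transcript. Mir6944 had 51 and 157 counts (13.6 and 28.0 CPM) and fills an intron of 96 nt in Dbn1, which encodes drebrin, an actin-binding protein of dendritic spines. Mir6982 had 34 and 94 counts (9.05 and 16.8 CPM) and ends an intron of 746 nt in Camk2a, a kinase of the postsynaptic density. All 3 were higher in replicate 2 in CPM. Mir6944 lay above Mir6982 in each library, though their ranges over the 2 libraries overlapped. Both values of Mir7044 lay above all values of these 2 genes. Host RNA was not measured in these libraries, so no level of a host stands beside these values. The counts are per hairpin and were not divided by length. They carry no read positions, so they do not say which arm was read. Nor do they tell a microRNA product from a fragment of host RNA.

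Below these, 8 genes had mean levels between 6.50 and 9.71 CPM. Mir6953 had 28 and 67 counts and lies in an 81 nt intron of Grina, a transmembrane protein linked to glutamate receptors, 13 nt from the donor. Mir7019 had 26 and 64 counts in Pink1, the mitochondrial kinase mutated in inherited parkinsonism. Mir7066 had 30 and 57 counts in Ncan, the proteoglycan neurocan of the brain's extracellular matrix. Mir7052 had 20 and 70 counts in Josd2, a deubiquitinase, and Mir7004 had 30 and 41 counts in Atp9a, a phospholipid flippase. The others were Mir6954 in Mroh1 (17 and 51), Mir6959 in Sbf1 (16 and 50) and Mir7069 in Farsa, a tRNA synthetase subunit (18 and 46).

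The remaining 12 detected genes had means of 2.22 to 5.60 CPM. They were Mir6900 in Ndufa10, a subunit of respiratory complex I (26 and 24 counts), Mir7013 in the lipid kinase gene Pi4kb (15 and 36), Mir6990 in Esrra, a nuclear receptor (18 and 31), and Mir6915 in Ankrd52 (24 and 19). Mir7000 in Mapk8ip1, a scaffold of JNK signalling, had 16 and 27 counts, Mir6968 in Phf1 had 13 and 28, Mir6994 in Patl1 had 10 and 29, and Mir7016 in Tmem39b had 14 each. Mir7055 in Slc17a7, the vesicular glutamate transporter of excitatory neurons, had 13 and 10 counts. Mir6907 in Rrp1, Mir6986 in Rce1 and Mir7021 in Prdm2 each had 10 counts in both libraries, exactly at the limit. Just outside it stood Mir6966 with 11 and 9 counts and Mir7056, in the neuronal phosphatase gene Ptpn5, with 9 and 14.

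**Figure D4:**
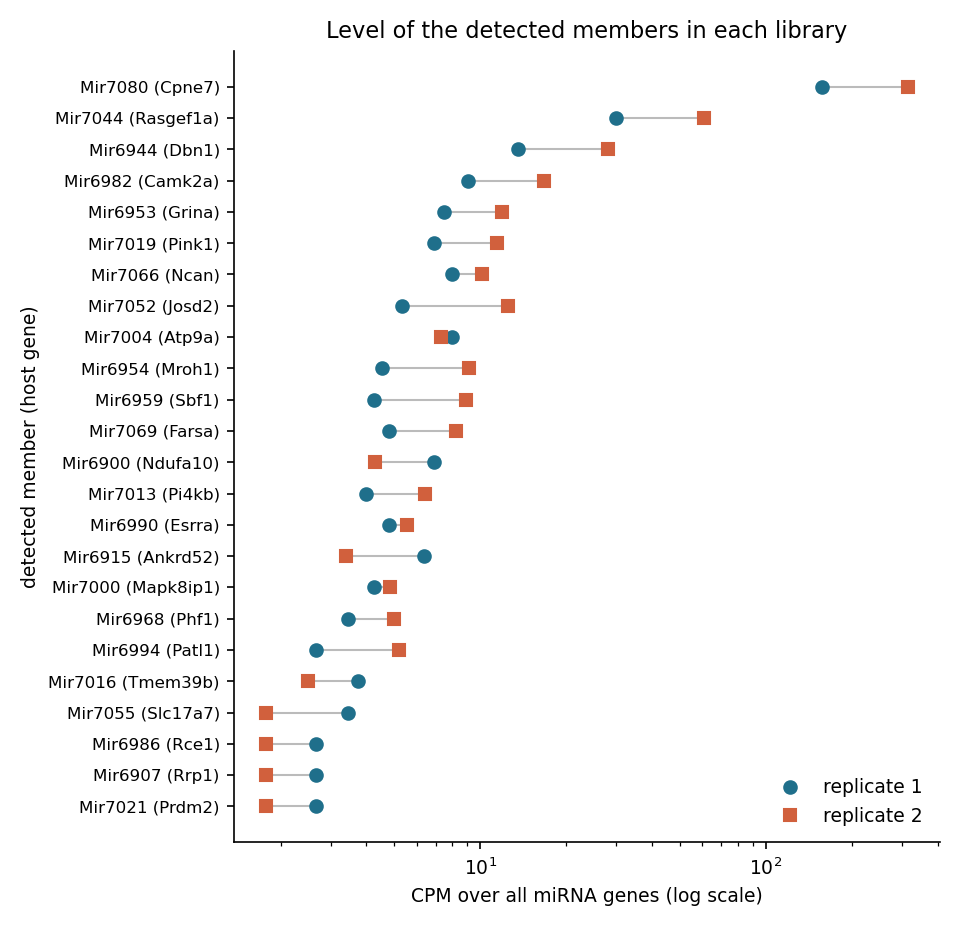
CPM over all miRNA genes (log axis) of 24 of the 25 detected members in replicate 1 (circles) and replicate 2 (squares), with the host gene in brackets and a line joining the 2 values of a gene. Mir7080 stands alone at 157 and 314 CPM, and the lowest genes lie at 1.79 to 2.66 CPM.

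All 25 detected genes ended exactly at an acceptor, as did 34 of the 38 with no count, so that position did not separate them. The 15 intron-filling members included 2 detected genes, Mir7080 and Mir6944. Mir7068 in Cherp (7 and 22 counts), Mir6958 in Dennd6b (3 and 15), Mir7070 in Fbxw9 (7 and 10) and Mir6970 in Skiv2l (3 and 10) were read below the limit, and Mir7082, Mir6974 and Mir6981 had 1 to 4 counts in all. The other 6, Mir6923, Mir7018, Mir7058, Mir7060, Mir7088 and Mir7091, had no count. Their hosts were Myh3, Hspg2, Lat, Fbrs, Mst1 and Dnase1l1 in the same order. With no count in a library, the depth leaves room for a level of 0.798 CPM (replicate 1) or 0.536 CPM (replicate 2), the worth of 3 counts.

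Intron-filling members were detected about as often as those that only end at the acceptor, at 2 of 15 (13.3%) against 23 of 172 (13.4%). Fewer of them were read at all, 9 of 15 (60.0%) against 144 of 172 (83.7%), and no test was run on this difference. None of the 13 members that met neither description, nor Mir7025, was detected, though Mir6936 in Sirt7 had 1 and 11 counts. The detected shares were alike with and without host exon overlap, 5 of 41 (12.2%) and 20 of 160 (12.5%). The 5 were Mir7080, Mir7044, Mir7019, Mir6954 and Mir6990. The 41 held 830 of the 1649 member counts in replicate 1 and 2478 of the 4244 in replicate 2. Mir7080 alone had 591 and 1759 of these. Of the 187 genes at an acceptor, those in introns of 100 nt or less were read in 29 of 40 cases (72.5%) and those in introns over 1000 nt in 54 of 61 (88.5%). The detected shares in these classes were 4 of 40 and 8 of 61 (13.1%), and the shares of the 3 classes between lay from 13.8% to 17.4%. The median intron was 374 nt for detected members and 155 nt for members with no count, and median hairpin GC was 59.4% and 53.9%.

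**Figure D5:**
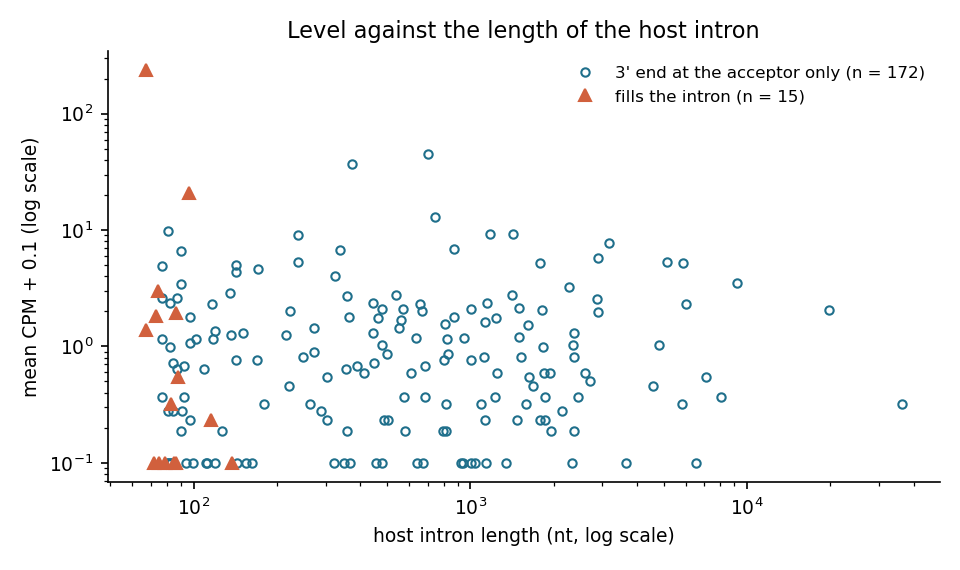
Mean CPM + 0.1 of each member that ends at an acceptor against the length of its host intron (both axes log), for the 15 that fill the intron (triangles) and the 172 with only the 3′ end at the acceptor (circles). Points on the lowest line at 0.1 had no count, and detected genes occur from introns of 67 nt to introns of 6024 nt.

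Outside the block 8 miRNA genes fill a short intron, of which 7 were read and 6 detected. Their mean levels ran from 0 (Gm27471, which shares 49 nt with Mir6970) to 651 CPM, and only Mir3102 lay above the mean of Mir7080. Among the 6 were the mirtrons Mir877 in Abcf1 with 397 and 1170 counts (157 ± 73.1 CPM) and Mir1224 in Vwa5b2 with 455 and 1141 counts (162 ± 58.5 CPM). Mir702, a mirtron of Plod3 whose annotated hairpin starts 9 nt upstream of the donor of a 102 nt intron and ends 2 nt before its acceptor, had 288 and 1190 counts (145 ± 96.1 CPM). Mir7080 lay above each of these 3 in each library, though its range over the libraries, 157 to 314 CPM, overlapped that of each. The highest of the 8 was Mir3102 in Arhgef17 at 651 ± 462 CPM, named, like Gm27471, after its value was seen. Among the 31 other genes with only the 3′ end at an acceptor, 22 (71.0%) were read and 8 (25.8%) detected.

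Each library alone gave another count of members past the limit. Replicate 1 had 27 members with 10 or more counts and replicate 2 had 58, beside 388 and 457 over all genes, and replicate 2 was the deeper library. Over all genes 384 passed in both libraries, so most genes past the limit in 1 library only passed in replicate 2. The same held for the members: of the 35 past the limit in 1 library only, 33 passed in replicate 2. The 10 with the most counts all passed there: Mir6945 in Pdlim7 had 4 and 53 counts, Mir6897 in Uggt1 6 and 48, Mir7046 in Rabac1 7 and 43, Mir7031 in Sh2b3 4 and 32 and Mir6985 in Ssh3 7 and 27. The other 5 were Mir7037 (2 and 27), Mir7068 (7 and 22), Mir6971 (6 and 22), Mir6989 (4 and 22) and Mir6943 (8 and 16). Mir6918 in Nipsnap1, named after its value was seen, went the other way with 18 and 3 counts.

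Differences between the libraries were tested for the 25 detected members within a test of all 384 detected genes. An exact two-sided binomial test on counts scaled with edgeR's TMM factors, adjusted by the Benjamini-Hochberg method, called 7 members (28.0%), where 65.1% of all detected genes were called. Such a test passes genes with many counts more readily, and among genes with under 500 counts in all it called 6 of 24 members (25%) and 48 of 134 other genes (35.8%). It compares these libraries, not conditions, and covers counting error only. The edgeR common dispersion put the spread between libraries at a coefficient of variation of 34.4%. Of the 25 tested members, 5 (20%) were called higher in replicate 2, where 31.0% of all 384 genes were. They were Mir7080 (1.60-fold, adjusted p = 3.02e-24), Mir7052 (1.89-fold, adjusted p = 0.0173), Mir6944 (1.66-fold), Mir7044 (1.64-fold) and 1 other. Another 2 of the 25, Mir6915 (2.34-fold, adjusted p = 0.00999) and Mir6900 (2.01-fold, adjusted p = 0.0267), were called higher in replicate 1, where 34.1% of all genes were.

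The median of the 25 detected members was 1.29 times as high in replicate 2 on the TMM scale, and the median of all detected genes was 0.995. With total counts in place of TMM these medians became 1.61 and 1.24. Then 9 of the 25 tested members were called, all toward replicate 2. Of all detected genes 70.6% were called, and 50.8% were called toward replicate 2. Mir6900 and Mir6915 then had adjusted p = 0.147 and adjusted p = 0.0601. Mir7055 had the largest ratio toward replicate 1 of any detected member, 2.41-fold, and did not pass (adjusted p = 0.0704). When all 752 genes with any count were tested, 16 of 163 members passed (9.82%), 13 of them toward replicate 2. Among all 752 genes 34.8% passed, and 17.4% passed toward replicate 2. Of the 16, 10 were below the detection limit and 9 of those 10 were higher in replicate 2. They included Mir6945 (adjusted p = 4.95e-06), Mir6897 (adjusted p = 0.000334) and, toward replicate 1, Mir6918 (adjusted p = 1.09e-05).

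Seeds were compared among listed mature products only, from the 968 of 2202 miRNA genes with a RefSeq hairpin. The share of unshared seeds over all listed products was not computed, so the members' counts have no background. The 343 distinct mature products listed for these genes included 269 whose seed no other listed mature product carried, and 46 shared a seed with a miRNA gene outside the block. For detected members the numbers were 31 and 6 of 40 products. Among these 20, Mir7019 and Mir6907 were the only pair with a common seed, on their 5p arms.
mmu-miR-7019-5p: aUCUGGGAggggcugucaggagu
mmu-miR-6907-5p: uUCUGGGAcacagggaggcucg
Among detected members with listed products, mmu-miR-7016-5p alone had a seed also listed for a gene with a mean of at least 1000 CPM. That seed, AGGGAGG, is also that of mmu-miR-149-3p, whose gene had a mean of 3935 CPM. The counts of a gene do not separate its arms, so this value is no level of the product that carries the seed.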

How the data were processed

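MicroRNA sequencing of total RNA, size range under 30 per the labels, gave 1 table for each of the 2 libraries. The authors deposited whole-number read counts of each miRNA gene, without normalization, on mm10 and GENCODE M21 per the deposited notes. Which aligner and counter made them is not given here. Column 3 was used as the sense strand, without its 4 summary lines. All 2202 gene identifiers matched GENCODE M21. CPM is a gene's share of the sense counts of miRNA genes times 1000000, and detection means 10 or more counts in both libraries. For a hairpin in several introns of same-strand hosts (overlap of at least 80%), the intron with the largest overlap and then the shortest was taken over all transcripts. Calls used exact binomial tests in scipy 1.17.1 with TMM factors from edgeR 4.0.16, and the code was checked on simulated data. DESeq2 1.42.0 gave alternative size factors. Named genes are all detected members (1 is counted but not reported here by name), the 10 with most counts among those past the limit in 1 library, the 5 undetected with most counts, the largest ratios, and the mirtrons Mir877, Mir1224 and Mir702. Members and lists were chosen with earlier results of these data known.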

Additional observations from a re-analysis of the deposited data

How the results depend on the processing

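The number of detected members was 25 with the unstranded counts and without members that share 20 nt or more. It was 51 at 5 counts, 11 at 20 counts, 60 at 10 counts in either library and 57 at 1 CPM in both, or 25.4%, 5.47%, 29.9% and 28.4% of the members against 12.4%. With 1 library left out it ranged from 27 to 58. The intron-filling members numbered 31 when ends within 20 nt counted and 14 to 15 under the other settings. Of the 15, 4 were detected at 5 counts or at 1 CPM and 6 at 10 counts in either library, and 2 to 6 with 1 library left out. The summed level was 209 per 1000000 of all reads, 363 CPM without Mir7080, an alternative chosen after seeing the data, and 439 to 758 CPM with 1 library left out. The number of members called between libraries was 16 with no filter on low counts, because 163 members were then tested, and 6 to 9 under the other settings. With total counts the ratios of Mir6990 and Mir7000 turned to 1.16 and 1.13 toward replicate 2, neither called. Members at an acceptor numbered 186 to 198, and members read at all 122 to 163, under the alternatives added for them after seeing the data. No paired analysis was possible because there is 1 group. With 2 libraries and a median of 2 to 3 counts per member, depth limits most single-gene statements.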
